A study of Homo sapiens with 12 samples.

Results

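The genes described here are the protein-coding genes of human chromosome 19 whose symbol is ZNF followed by a number, with or without a final letter, and whose read counts add up to 120 or more over the 12 libraries. The annotation holds 246 genes with such symbols on this chromosome, all of them in the count files, and 226 reached the count minimum (of 58780 gene IDs in the files and 26688 tested). Among the 20 genes below the minimum, ZNF541 (94 counts) and ZNF560 (65) lay closest to it, and the lowest genes above it were ZNF709 (131), ZNF20 (151) and ZNF844 (189). All 226 members were tested, and 211 of them had a mean of at least 1 CPM (read counts adjusted for the size of the library) in 1 or more groups.

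C2H2 zinc finger proteins read DNA with a row of fingers, each a short loop folded round a zinc ion that is held by a pair of cysteines and a pair of histidines. Neighbouring fingers are joined by a conserved linker named TGEKP after its amino acids. Most ZNF proteins of this chromosome also carry a KRAB domain, which recruits the corepressor TRIM28 (KAP1) and with it the histone methyltransferase SETDB1, HP1 proteins and histone deacetylases. Many of their binding sites lie in transposable elements, which they help to silence. The genes arose by tandem duplication and sit in clusters along the chromosome, with most fingers encoded by a single long last exon.

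The cells were HEK293, a human embryonic kidney line, in the Flp-In T-REx derivative, grown in culture and transfected with small interfering RNAs (siRNAs). The groups are a triple knockdown (triple KD) of SAFB1, SAFB2 and SLTM together, SAFB1 KD, SLTM KD, and a control given control siRNA, with 3 libraries each from cultures that the series text calls biological replicates. SAFB1 (gene symbol SAFB), SAFB2 and SLTM are related RNA-binding proteins, and single knockdowns were topped up with control siRNA to the total amount used in triple KD. A SAFB2 knockdown alone is not analysed here. Both single knockdowns target 1 gene with its own siRNA, and all groups come from 1 cell line. The measurement was poly(A)+ strand-specific RNA sequencing.

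Library totals ran from 57001123 to 69495905 counts in triple KD, from 56856228 to 67842955 in SAFB1 KD, from 58070400 to 62227480 in SLTM KD and from 62104421 to 75533510 in control. SAFB RNA averaged 38.2, 45.3, 236 and 232 CPM in triple KD, SAFB1 KD, SLTM KD and control, SAFB2 RNA 29.1, 209, 140 and 126 CPM, and SLTM RNA 25.01, 139, 20.5 and 116 CPM in the same order, so each targeted RNA was low in the groups labelled with it. All 10 HEK293 markers were above 1 CPM, with a summed level of 1734 to 1756 CPM in triple KD, 1823 to 1875 CPM in SAFB1 KD, 1874 to 1906 CPM in SLTM KD and 1809 to 1843 CPM in control. In triple KD 7 of them fell, NEFL among them (-0.41), and 1 rose. Of the other lists, 0 of 4 leukocyte, 0 of 4 squamous, 1 of 4 fibroblast (COL1A1) and 1 of 3 erythroid markers (HBA1, called lower in triple KD at -0.49) reached 1 CPM. Of 5 colon epithelium markers, 2 were above 1 CPM, with a summed level of 61.6 to 62.5 CPM in triple KD, 48.01 to 54.5 CPM in SAFB1 KD, 53.1 to 55.1 CPM in SLTM KD and 50.5 to 52.6 CPM in control, and LGR5 rose in triple KD by 0.52. The part of these marker differences in the results below was not tested. Mitochondrial genes took 4.11% to 4.51% of the counts in triple KD, 3.40% to 3.68% in SAFB1 KD, 3.89% to 4.25% in SLTM KD and 3.31% to 3.61% in control.

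A KRAB A-box was found by its amino acid pattern in 187 members, and 39 had no match to it. The proteins held a median of 12 C2H2 fingers (range 1 to 36), and 167 had at least 10. The repeated structure is visible in the RNA. The following lines show 99 bases of the longest coding exon of the members with the highest and lowest changes in triple KD and of the most abundant one, as far as they hold such a stretch. Capitals mark the codons of the TGEKP linker, and the bases between them encode 1 finger, with its cysteine codons (tgt or tgc) in the first part and its histidine codons (cat or cac) towards the end. Coordinates are on GRCh38, sequences run 5′ to 3′ on the strand of the gene, and all come from the reference genome.
ZNF66 (chr19:20806354-20806452, plus strand): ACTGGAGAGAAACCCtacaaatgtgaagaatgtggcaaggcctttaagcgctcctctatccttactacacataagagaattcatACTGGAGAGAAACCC
ZNF559 (chr19:9342409-9342507, plus strand): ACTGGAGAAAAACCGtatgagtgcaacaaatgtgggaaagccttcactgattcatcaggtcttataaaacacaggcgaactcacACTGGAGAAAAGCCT
ZNF814 (chr19:57872993-57873091, minus strand): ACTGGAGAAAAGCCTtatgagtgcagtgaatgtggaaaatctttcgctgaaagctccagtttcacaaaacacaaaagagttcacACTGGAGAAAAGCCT
ZNF761 (chr19:53455552-53455650, plus strand): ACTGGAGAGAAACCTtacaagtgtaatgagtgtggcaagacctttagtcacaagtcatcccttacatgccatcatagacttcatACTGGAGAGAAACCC
ZNF780A (chr19:40075782-40075880, minus strand): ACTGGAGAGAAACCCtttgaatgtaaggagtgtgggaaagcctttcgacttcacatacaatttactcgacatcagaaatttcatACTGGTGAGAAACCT
ZNF146 (chr19:36236723-36236821, plus strand): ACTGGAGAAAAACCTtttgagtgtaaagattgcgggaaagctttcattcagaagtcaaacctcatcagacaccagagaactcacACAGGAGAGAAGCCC

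These 6 stretches shared the same base at 44 of 99 positions, and pairs of them at 59 (ZNF814 and ZNF780A) to 77 positions (ZNF66 and ZNF761). Linker codons on the coding strand, any synonymous codon allowed, occurred in the longest coding exon of 194 members (85.8%), and 168 (74.3%) held a pair of linkers exactly 84 bases apart, as printed above. Since long exons hold more matches, exons within the interquartile range of the members' lengths (1268 to 1763 bases) were compared. There, 92.9% of 112 member exons held a linker, against 77.0% of 61 exons of ZNF genes on other chromosomes and 2.59% of 580 exons of other protein-coding genes. Adenine made up a median of 34.5% of these member exons, against 33.8% in other ZNF genes and 24.9% in other protein-coding genes. The purine-rich word GAGAAA, which overlaps the linker codons, occurred 5.71 times per kb in members, 3.73 in other ZNF genes and 0.70 in the rest. GAAGAA, the purine-rich word that the study linked to SAFB binding, occurred 1.65, 1.29 and 1.04 times per kb in the same order, while the share of exons holding it was 65.2%, 68.9% and 65.3%. Over the longest coding exons of all 226 members the word was concentrated in the block of 31 genes from ZNF101 to ZNF254 next to the centromere, with a median of 6.09 per kb (range 0 to 8.85), against 0.56 (0 to 3.06) in the other 195, and 83 members had none.

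Such similarity limits the counts, because reads that fit several genes equally well are absent from them. A median of 6.04% of the 50-base words in a member's exons also occurred in another gene, on either strand (range 0 to 81.3%). Genes that overlap the member count here too. In ZNF57, 70.8% of words were shared, and genes on the opposite strand overlapped 75.2% of its exon length. The share is thus not a measure of similarity between ZNF genes alone, and the split below does not isolate it. Members with over 10% of shared words, 74 in all, had 41.9% higher and 13.5% lower calls in triple KD, and the other 152 had 42.8% and 17.1%.

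Levels between genes were compared per length, as CPM per kb of merged exons over all libraries. Members had a median of 2.42 CPM per kb (range 0.026 to 80.9), against 3.07 in ZNF genes on other chromosomes, 7.24 in other protein-coding genes of chromosome 19 and 4.98 in all other protein-coding genes. ZNF146, a protein made almost only of fingers and without a KRAB domain, led by far at 80.9 CPM per kb. ZNF428 followed at 49.5, ZNF227 at 22.6, ZNF581 at 18.1 and ZNF302 at 17.8 CPM per kb. These 5 genes gave 14.01% of the members' summed CPM. ZNF581 and the neighbouring ZNF580 overlap on the same strand, so their counts are less certain.

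In triple KD the ZNF genes of chromosome 19 shifted upwards by small amounts. Of 226 members, 96 (42.5%) rose and 36 (15.9%) fell relative to control, whereas 19.4% of all genes tested rose and 20.9% fell (edgeR quasi-likelihood test, Benjamini-Hochberg adjusted p under 0.05 over all genes tested). The members' median log2 fold change was 0.10, with an interquartile range from -0.06 to 0.25 and a full range from -1.74 to 1.03. Over all genes tested the median was -0.004. Among the other 13615 protein-coding genes 28.5% rose and 34.0% fell, with a median of -0.02. On the same chromosome, 250 of 796 other protein-coding genes rose and 208 fell (median 0.01), and on other chromosomes 80 of 234 ZNF genes rose and 50 fell (median 0.04). In bulk RNA, fewer cells with a transcript and less of it per cell cannot be told apart.

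Sizes were modest. The called members changed by a median of 0.26 on the log2 scale, and only 3 passed a test against a 1.5-fold change, with ZNF66 and ZNF559 higher and ZNF814 lower (1.69% and 1.74% of all genes tested did so in the higher and lower direction). In CPM summed over all members, triple KD libraries had 4693, 4778 and 4647, SAFB1 KD libraries 4527, 4496 and 4519, SLTM KD libraries 4644, 4667 and 4589, and control libraries 4569, 4563 and 4604. The sums in triple KD were all above control (mean ± SD 4706 ± 66.5 against 4579 ± 22.1, n = 3 each) and those in SAFB1 KD all below it (4514 ± 16.1). An exact two-sided permutation test over libraries gave p = 0.1 for each, the smallest value that 3 against 3 allows, and p = 0.2 for SLTM KD (4633 ± 40.1).

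**Figure D1:**
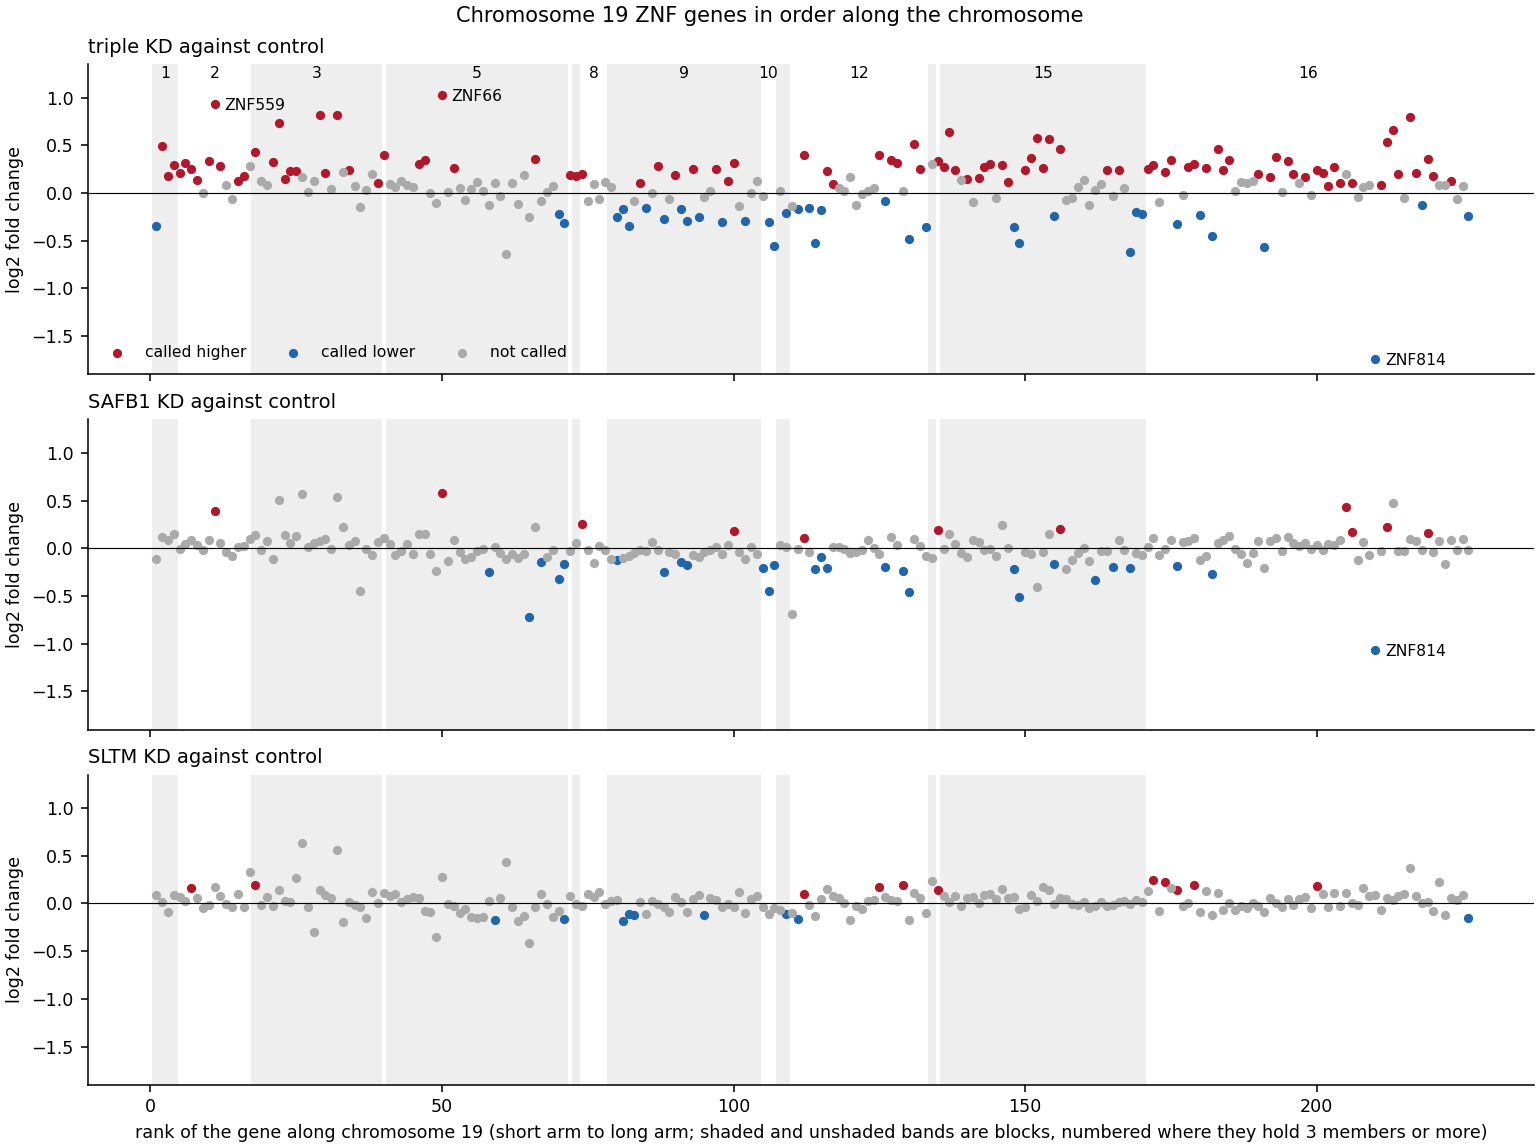
Log2 fold change (y axis) of the 226 chromosome 19 ZNF genes, ordered by rank along the chromosome from the short to the long arm (x axis), in triple KD, SAFB1 KD and SLTM KD against control. Each point is 1 gene, red where called higher, blue where called lower and grey where not called; bands mark position blocks. In triple KD 96 points are red and 36 blue, in SAFB1 KD 11 and 27, and in SLTM KD 11 and 9.

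ZNF66, a KRAB zinc finger gene in the short-arm cluster next to the centromere (19:20776304-20809995), had the highest rise in triple KD. Its libraries had 4.82, 5.36 and 5.87 CPM in triple KD, 3.89, 4.04 and 3.81 in SAFB1 KD, 3.42, 3.15 and 2.99 in SLTM KD, and 2.09, 2.86 and 2.86 in control. All 3 triple KD libraries lay above every other library. The log2 fold change against control was 1.03 ± 0.095 in triple KD (SE; adjusted p = 1.9e-14, edgeR) and 0.58 ± 0.10 in SAFB1 KD (2.3e-05), and 0.28 ± 0.11 in SLTM KD was not called (0.086).

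ZNF559, another KRAB zinc finger gene (19:9323772-9351162), followed. Its levels were 11.96, 12.41 and 12.36 CPM in triple KD, 8.06, 8.45 and 8.76 in SAFB1 KD, 7.65, 7.09 and 6.98 in SLTM KD, and 6.26, 6.20 and 6.82 in control. Triple KD and SAFB1 KD each stood clear of control, and triple KD clear of both single knockdowns. The change was 0.93 ± 0.061 in triple KD (adjusted p = 1.2e-20) and 0.39 ± 0.064 in SAFB1 KD (1.0e-05). A read-through gene, ZNF559-ZNF177, shares 12.9% of its exon length with it.

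Lower on this list stood ZNF135, ZNF491, ZNF418, ZNF577, ZNF701, ZNF417, ZNF229 and ZNF555, with log2 changes of 0.80, 0.73, 0.66, 0.64, 0.56, 0.53, 0.52 and 0.49 in triple KD. ZNF577 had 10.86, 13.01 and 12.47 CPM in triple KD, against 7.87, 7.87 and 7.67 in control (adjusted p = 9.9e-14), while both single knockdowns stayed between 7.56 and 9.07 CPM. ZNF229 had 20.7, 21.2 and 19.8 CPM in triple KD, against 15.3, 13.6 and 14.4 in control (7.2e-15). Neither was called in a single knockdown. ZNF417, which together with its close relative ZNF587 is known to bind endogenous retroviruses in human cells, had 18.7, 18.7 and 16.9 CPM in triple KD, 15.1, 14.5 and 14.1 in SAFB1 KD, and 12.8, 12.1 and 12.8 in control. It rose in both comparisons (triple KD 0.53 ± 0.050, adjusted p = 4.9e-14; SAFB1 KD 0.22 ± 0.052, 0.0022), with 36.2% of its words shared with other genes.

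**Figure D2:**
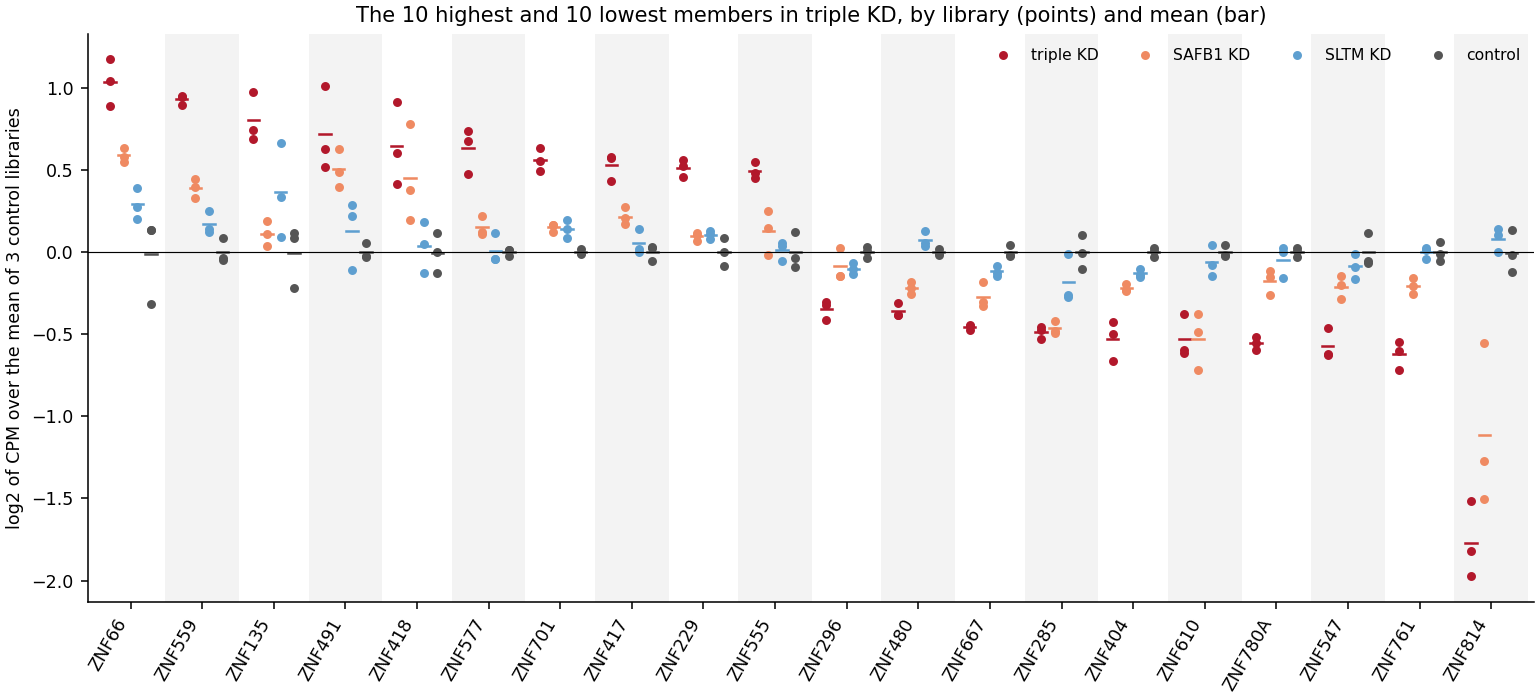
Log2 of CPM in each library over the mean of the 3 control libraries (y axis) for the 10 members with the highest and the 10 with the lowest change in triple KD (x axis). Points are libraries and short bars the mean of 3, with triple KD, SAFB1 KD, SLTM KD and control from left to right. ZNF814 lies apart at the bottom, and the SAFB1 KD means fall between triple KD and control for most genes.

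ZNF814, a KRAB zinc finger gene near the end of the long arm (19:57848731-57889074, minus strand), fell furthest. It had 0.700, 0.866 and 0.631 CPM in triple KD, 0.874, 1.02 and 1.69 in SAFB1 KD, 2.73, 2.48 and 2.67 in SLTM KD, and 2.71, 2.44 and 2.28 in control. Triple KD thus kept 0.299 times the control level (log2 -1.74 ± 0.158, adjusted p = 1.2e-14) and SAFB1 KD 0.476 times (-1.07 ± 0.144, 8.1e-08), while SLTM KD overlapped control. The third SAFB1 KD library stood above the other two. A share of 25.6% of its words occurs in other genes, and ZNF587 overlaps it on the opposite strand.

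The next lower genes were ZNF761, ZNF547, ZNF780A and ZNF610, at -0.62, -0.57, -0.55 and -0.52 on the log2 scale, followed by ZNF404, ZNF285, ZNF667, ZNF480 and ZNF296, at -0.52 to -0.35. ZNF780A had 26.9, 26.2 and 25.5 CPM in triple KD, 35.57, 34.58 and 32.03 in SAFB1 KD, 38.5, 39.0 and 34.5 in SLTM KD, and 38.6, 39.1 and 37.7 in control. It fell in triple KD (adjusted p = 6.5e-19) and less in SAFB1 KD (-0.17 ± 0.038, 0.00097). ZNF285 was alike in both, at 4.48, 4.26 and 4.43 CPM in triple KD and 4.38, 4.60 and 4.42 in SAFB1 KD, against 6.61, 5.72 and 6.14 in control. Its changes were -0.49 ± 0.078 (3.9e-07) and -0.46 ± 0.078 (1.7e-05). ZNF146, the most abundant member, had 294, 304 and 296 CPM in triple KD, 318, 324 and 335 in SAFB1 KD, 366, 368 and 355 in SLTM KD, and 350, 354 and 358 in control. Its fall of 0.25 ± 0.020 in triple KD (2.4e-16) and 0.12 ± 0.020 in SAFB1 KD (1.0e-05) was small but larger than the spread between libraries.

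Members known for binding transposable elements were looked up for that role, after earlier results of these data were known. ZNF91, which represses SVA elements, had 19.9, 20.5 and 19.8 CPM in triple KD, 18.7, 19.7 and 19.6 in SAFB1 KD, 22.3, 23.3 and 22.9 in SLTM KD, and 21.3, 21.1 and 21.6 in control. It fell in SAFB1 KD (-0.14, adjusted p = 0.018) and was not called in triple KD (-0.09, 0.089) or SLTM KD (0.10, 0.13). ZNF93, which represses older L1 elements, had 5.18, 5.41 and 4.43 CPM in triple KD against 4.92, 4.88 and 4.63 in control and was not called (0.06, 0.61). ZNF649, which binds L1 sequences, rose in triple KD with 20.03, 19 and 18.94 CPM against 15.9, 16.1 and 16.8 in control (0.24, 5.7e-06). ZNF765, also an L1 binder, was not called (0.06, 0.42). ZNF587 was just called in triple KD (0.09, 0.044), with 41.5, 43.2 and 38.9 CPM against 39.1, 39.3 and 38.0 in control, an overlap of both groups. The call was lost in 5 fits that left out a library (any control library, or triple KD replicate 1 or 2), with changes of 0.054 to 0.097. It was also lost with limma-voom (0.087) and with no filter on low counts (0.077). ZNF808, a repressor of MER11 elements, had 4.50, 4.26 and 4.20 CPM in triple KD against 3.69, 3.65 and 3.46 in control (0.26, 0.010), and was not called without control replicate 3 (0.23).

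The position of the members was described with blocks, where a new block starts at a gap of over 1 Mb between neighbouring annotated ZNF genes. This gave 16 blocks, 10 of them with 3 members or more. The calls in each block are a description. On the outer short arm, the block from ZNF557 to ZNF846 (19:7069703-9793180, 13 members) had 9 higher and 0 lower calls in triple KD, with a median log2 change of 0.21. The block from ZNF653 to ZNF791 (19:11483427-12640098, 22 members) had 11 higher and 0 lower, with a median of 0.19, and 21 of its 22 members lay above 0. The exception, ZNF709 (-0.15 ± 0.40, adjusted p = 0.82), shares 79.1% of its words with other genes. Other genes on its strand overlap 79.4% of its exon length. The median level in this block was 0.90 CPM per kb. Some of its members had few counts and a wide SE, such as ZNF844 (189 counts, 0.008 ± 0.35). The sign of their change is uncertain, and small changes in either direction could not be called. For comparison, 19.4% of all genes tested rose and 20.9% fell, and 28.5% and 34.0% of other protein-coding genes. At an unadjusted p under 0.05 (edgeR) 1 of the 13 (ZNF121, -0.06) and 0 of the 22 were lower, and DESeq2 and limma-voom called 0 lower in either block. Higher calls were 8 of the 13 and 8 of the 22 with DESeq2, and 9 and 9 with limma-voom. Next to the centromere, the block from ZNF101 to ZNF254 (19:19668796-24129968, 31 members), which holds ZNF66, had 5 higher and 2 lower (median 0.05).

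On the long arm, the block from ZNF565 to ZNF573 (19:36182276-37817300, 26 members), which holds ZNF146, had 7 higher and 10 lower calls, with a median of -0.05, or 0.003 with the GC content trend removed. Over all genes tested the shares called were 19.4% and 20.9%, and over other protein-coding genes 28.5% and 34.0%, so its split is close to that of other coding genes. The 3 members from ZNF546 to ZNF780A (19:39984134-40090943) had 0 higher and 2 lower (median -0.31), and 0 higher also with DESeq2, with limma-voom and at an unadjusted p under 0.05. These neighbours, ZNF780A and ZNF780B, are close relatives. ZNF780B had 26.6, 26.3 and 25.7 CPM in triple KD, 24.2, 23.6 and 23.4 in SAFB1 KD, 31.4, 30.3 and 28.5 in SLTM KD, and 31.6, 32.5 and 33.1 in control, so that it fell more in SAFB1 KD (-0.45 ± 0.038, adjusted p = 2.3e-14) than in triple KD (-0.31 ± 0.038, 3.5e-10), with a difference between both knockdowns of 0.14 ± 0.040 (0.0026) for triple KD against SAFB1 KD. For ZNF780A the same contrast was -0.38 ± 0.041 (5.0e-12). All 3 members of this block fell in SAFB1 KD.

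From ZNF575 to ZNF296 (19:43525497-45076478, 24 members) 8 rose and 7 fell (median 0.02). In this block ZNF226 had 78.5, 81.3 and 79.98 CPM in triple KD, 57.5, 58.5 and 57.6 in SAFB1 KD, 68.08, 68.97 and 67.99 in SLTM KD, and 59.7, 58.7 and 62.9 in control. It rose in triple KD (0.40 ± 0.028, 1.9e-19) and in SLTM KD (0.18 ± 0.028, 5.2e-06). The block from ZNF175 to ZNF331 (19:51571283-53580269, 35 members) had 17 higher and 6 lower calls (median 0.13), and the last and largest, from ZNF628 to ZNF446 (19:55476617-58481230, 56 members), 31 higher and 7 lower (median 0.13). ZNF544 of the last block rose to 55.9, 60.5 and 60.5 CPM in triple KD, against 46.0, 46.3 and 45.8 in control (0.36 ± 0.031, 1.8e-15). The block with ZNF77 at the start of the short arm, led by ZNF555, had 3 higher and 1 lower call among 4 members.

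Single genes far from other ZNF genes were mostly higher. ZNF333 changed by 0.40, ZNF536 by 0.19, ZNF507 by 0.18 and ZNF473 by 0.34 in triple KD, all called. ZNF473 (ZFP100), a part of the machinery that cuts histone pre-mRNA, had 37.1, 39.4 and 38.9 CPM in triple KD, 34.2, 34.8 and 35.3 in SAFB1 KD, 33.6, 34.2 and 33.1 in SLTM KD, and 30.6, 30.0 and 30.8 in control. It was called higher in all 3 comparisons with control. ZNF114, at 0.350, 0.433 and 0.347 CPM in triple KD and 0.303, 0.470 and 0.146 in control, was not called (adjusted p = 0.47). The block of ZNF574 and ZNF526 had 1 lower call, ZNF526 (-0.21, 4.6e-07).

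**Figure D3:**
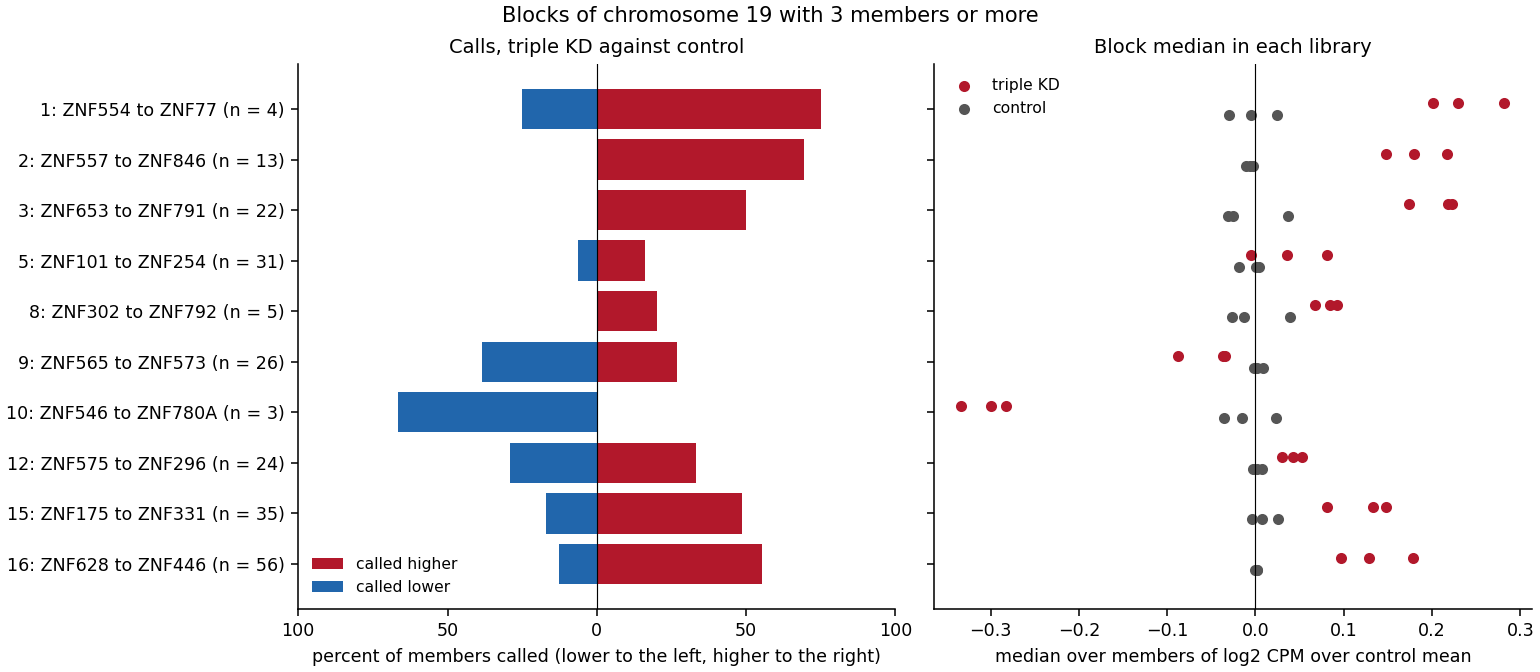
Position blocks with 3 members or more, from the short arm (top) to the long arm (bottom). The left panel gives the percent of members called higher (red, to the right) and lower (blue, to the left) in triple KD against control, and the right panel the median over members of log2 CPM over the control mean in each triple KD (red) and control (grey) library. The 3 triple KD libraries overlap the control libraries in the block from ZNF101 to ZNF254. They lie below the control libraries from ZNF546 to ZNF780A and from ZNF565 to ZNF573, and above them in every other block shown. From ZNF565 to ZNF573 the median fold change was 0.003 with the GC content trend removed.

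Direct neighbours had the same sign about as often as any pair of members. Over 210 adjacent pairs the Spearman correlation of triple KD changes was 0.08, and 57.6% of pairs had the same sign, against 60.1% of any 2 members of a block (3530 pairs) and 56.4% of any 2 members. Adjacent pairs on the same strand had a correlation of 0.18 (124 pairs) and those on opposite strands -0.04 (86 pairs). These are descriptions, since pairs share genes, libraries and base composition.

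The blocks differ in base composition, and so did the changes. Over the 226 members the triple KD change had a Spearman correlation of 0.25 with exonic GC content, and the correlation was 0.28 in SAFB1 KD and 0.35 in SLTM KD. It was 0.10 in triple KD once each library's trend with GC content was taken out in the fit. Below the first quartile of GC content (40.8%) 14 of 57 members rose and 13 fell in triple KD, and above the last quartile (45.97%) 30 of 57 rose and 9 fell. The medians of the 4 quartile groups were 0.01, 0.07, 0.13 and 0.19 from the lowest to the highest GC content. With the GC trend removed, the block from ZNF101 to ZNF254, whose median exonic GC content was 38.4%, had 13 higher and 1 lower call and a median of 0.12 (0.05 without this step). The block from ZNF565 to ZNF573 then had 7 higher and 8 lower, and its median of 0.003 no longer lay below 0. The blocks from ZNF557 to ZNF846 and from ZNF653 to ZNF791 kept medians of 0.23 and 0.20, with 10 and 11 higher calls and 0 lower in each.

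**Figure D4:**
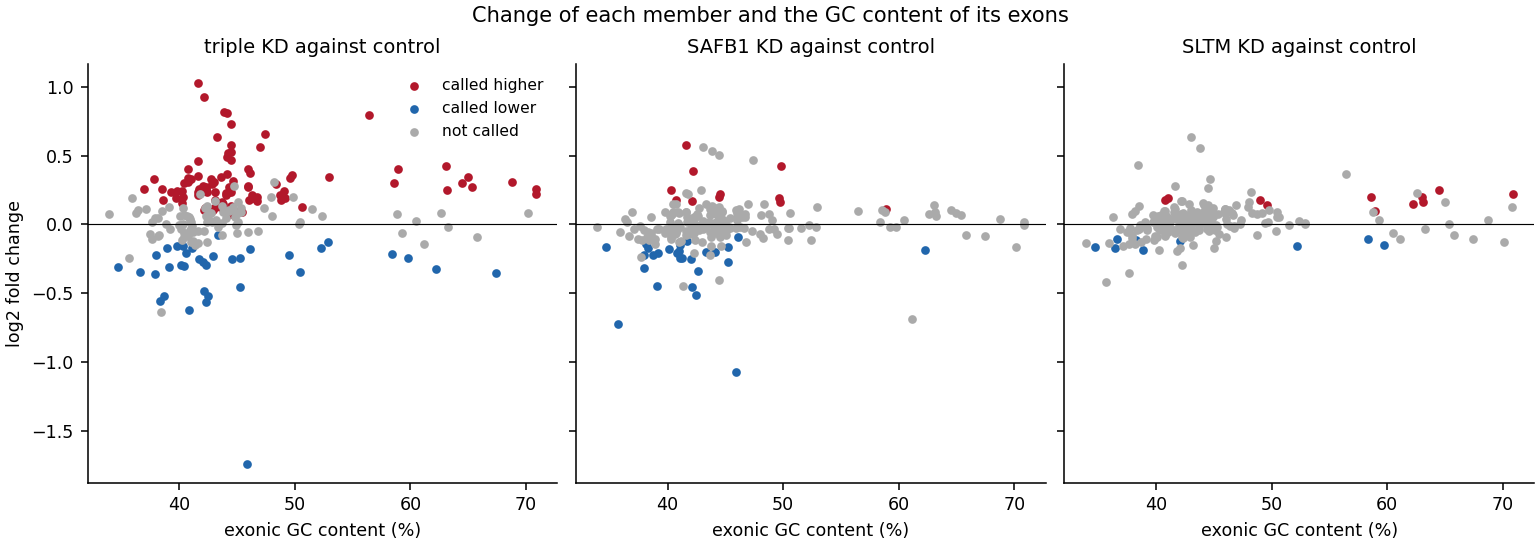
Log2 fold change against control (y axis) and GC content of the merged exons in percent (x axis) for each of the 226 members in triple KD, SAFB1 KD and SLTM KD. Red points were called higher, blue lower and grey not called. The cloud tilts upwards with GC content, with Spearman correlations of 0.25, 0.28 and 0.35 over members.

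By protein features, members with the KRAB pattern had 77 higher and 28 lower calls of 187 in triple KD (median 0.10), and those without it 19 and 8 of 39 (0.18). The number of fingers had a correlation of -0.10 with the triple KD change and -0.17 with the SAFB1 KD change. In SAFB1 KD, 1 rose and 14 fell of 70 members with 15 or more fingers, and 4 and 11 of 97 with 10 to 14. Of 50 members with 5 to 9 fingers 5 rose and 1 fell, and of 9 with 0 to 4 the counts were 1 and 1. The shares over all genes tested were 5.04% and 4.62%. Adenine content of the longest coding exon correlated at -0.17 in triple KD and -0.24 in SAFB1 KD, GAAGAA per kb at -0.05 and -0.10, and gene length at -0.15 and -0.28. All of these are over the same 226 members and libraries.

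Processed pseudogenes inside members were looked at after their values were seen. ZNF761 and ZNF813, neighbours in the block that ends with ZNF331, each contain on their own strand a processed pseudogene of the tropomyosin gene TPM3. TPM3P9, inside ZNF761, had 20.3, 20.1 and 19.6 CPM in triple KD, 11.8, 10.9 and 11.01 in SAFB1 KD, 7.56, 8.33 and 7.27 in SLTM KD, and 8.09, 7.45 and 7.80 in control (triple KD against control 1.37 ± 0.053, adjusted p = 2.2e-31). Its host ZNF761 had 13.2, 12.7 and 11.7 CPM in triple KD, 16.1, 17.2 and 16.6 in SAFB1 KD, 18.7, 19.4 and 19.5 in SLTM KD, and 19.07, 18.51 and 20.01 in control (-0.62 ± 0.049, 3.1e-17). The pseudogene was higher and the host lower in triple KD and, by less, in SAFB1 KD, while both overlapped control in SLTM KD. TPM3P9 and ZNF761 share 0.800% of the exon length of ZNF761.

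TPM3P6, inside ZNF813 and with no shared exon, had 1.436, 1.299 and 1.641 CPM in triple KD, 0.690, 0.475 and 0.550 in SAFB1 KD, 0.337, 0.436 and 0.378 in SLTM KD, and 0.239, 0.430 and 0.358 in control (2.06 ± 0.203, 2.1e-13). ZNF813 had 8.28, 9.09 and 7.89 CPM in triple KD against 9.83, 9.44 and 9.90 in control (-0.20 ± 0.060, 0.0038). Over all members, 28 held a nested gene on their strand that shared no exon with them. These 28 had 12 higher and 6 lower calls in triple KD (42.9% and 21.4%, median 0.11). The 198 without such a gene had 84 and 30 (42.4% and 15.2%, median 0.10). Nested genes with shared exons, like TPM3P9, were not counted for this split, so the 198 include hosts of such genes. RPL39P36, a ribosomal protein pseudogene inside ZNF765, changed by 0.05 (0.91). ZNF547, among the lowest members in triple KD at -0.57, holds the protein-coding gene TRAPPC2B on its strand, with shared exons. TRAPPC2B was not called in triple KD (-0.02 ± 0.073, adjusted p = 0.89, edgeR).

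**Figure D5:**
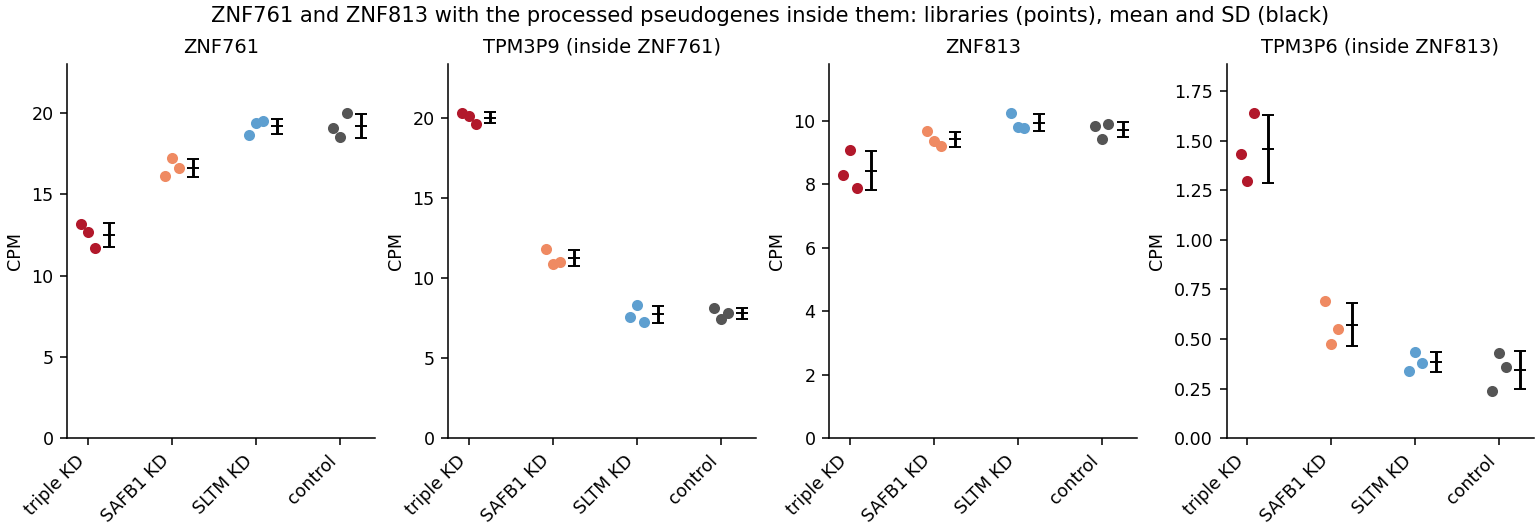
CPM (y axis, from 0) of ZNF761 and ZNF813 and of the processed pseudogenes TPM3P9 and TPM3P6 inside them, by group (x axis: triple KD, SAFB1 KD, SLTM KD, control). Coloured points are libraries, and black bars the mean and SD of 3. TPM3P9 averages 20.02 CPM in triple KD and 7.78 CPM in control, and ZNF761 12.5 and 19.2 CPM.

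SAFB1 KD moved fewer members, and more of them downwards. Relative to control 11 rose and 27 fell (5.04% and 4.62% of all genes tested), with a median of -0.02. Of the other protein-coding genes of the chromosome 113 of 796 rose and 27 fell. ZNF302, in a small cluster of the long arm, rose with 99.64, 97.97 and 98.51 CPM in SAFB1 KD against 80.5, 81.7 and 86.2 in control (0.25 ± 0.028, 2.3e-10), and ZNF611 by 0.20 (0.029). ZNF611 was not called without SAFB1 KD replicate 1 or 3 or control replicate 1 or 3 (0.15 to 0.21), nor with no filter on low counts (0.19). ZNF66, ZNF559 and ZNF417 complete the 5 highest. The lowest were ZNF814, ZNF610, ZNF285, ZNF780B and ZNF726. ZNF610 had 2.81, 3.03 and 2.39 CPM in SAFB1 KD against 3.863, 3.895 and 4.052 in control (-0.51 ± 0.096, 7.7e-05), about as low as the 2.57, 3.03 and 2.60 CPM of triple KD. By position, the lower calls came from the block with ZNF101 (5 of 31), the one with ZNF565 (4 of 26), the one with ZNF546 (3 of 3), the one with ZNF575 (6 of 24), the one with ZNF175 (6 of 35) and the one with ZNF628 (3 of 56), while the 22 members from ZNF653 to ZNF791 had no call with edgeR, DESeq2 or limma-voom (3 higher and 0 lower at an unadjusted p under 0.05, edgeR).

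SLTM KD left most members near control. It had 11 members higher and 9 lower (3.6% and 5.65% of all genes tested), with a median of 0.02. With the GC trend removed the split was 18 higher and 4 lower, with upper-quartile scaling 17 and 5, and with no filter on low counts 8 and 12. The 5 highest were ZNF579, ZNF865, ZNF444, ZNF112 and ZNF416, at 0.25, 0.22, 0.20, 0.19 and 0.18. ZNF444 had 48.4, 52.0 and 54.4 CPM in SLTM KD against 46.8, 42.3 and 45.8 in control (0.20 ± 0.035, adjusted p = 3.5e-05). Of the 11 higher members 8 had no KRAB pattern, among 39 such members, and 3 were among the 187 with it. Of the 9 lower members 4 were among these 39 and 5 among the 187. Members above the last quartile of GC content had 9 higher and 3 lower calls of 57. The lowest were ZNF566, ZNF100, ZNF254, ZNF576 and ZNF446, at -0.18 to -0.15. ZNF566 had 34.6, 35.1 and 31.5 CPM in SLTM KD against 37.4, 38.8 and 38.8 in control (-0.18 ± 0.038, 0.00041). ZNF100 and ZNF254, which are poor in GC, were no longer called with the GC trend removed, at -0.08 and -0.04. Single libraries decided several of these calls. ZNF112 was not called in 8 fits that left out a library (any control or SLTM KD library, or triple KD replicate 2 or 3, 0.19 to 0.20), ZNF416 in 3 (without control replicate 3 or SLTM KD replicate 2 or 3, 0.14 to 0.18) and ZNF446 in 6 (any control or SLTM KD library, -0.16 to -0.14). ZNF100 was not called without control replicate 2 (-0.15) or SLTM KD replicate 3 (-0.13), nor ZNF254 without control replicate 2 or SLTM KD replicate 1 (-0.15 in each). With all libraries kept, ZNF446 was not called with DESeq2 (-0.15) or upper-quartile scaling (-0.13), nor ZNF416 with no filter on low counts (0.17).

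Triple KD was also set against each single knockdown. Against SAFB1 KD 92 members were higher and 27 lower (16.2% and 18.6% of all genes tested), with a median of 0.12, led by ZNF135, ZNF559 and ZNF577 (0.70, 0.54 and 0.49) and by ZNF814, ZNF761 and ZNF780A (-0.67, -0.41 and -0.38). Without the third SAFB1 KD library, ZNF814 differed by -0.37 and was not called. Against SLTM KD 78 were higher and 38 lower (17.5% and 18.8% of all genes tested), with a median of 0.09, led by ZNF559, ZNF66 and ZNF418 (0.76, 0.75 and 0.63) and by ZNF814, ZNF761 and ZNF780A (-1.83, -0.62 and -0.51). Without triple KD replicate 2, ZNF418 differed by 0.48 and was not called. ZNF135 had 2.31, 2.40 and 2.81 CPM in triple KD, 1.47, 1.54 and 1.63 in SAFB1 KD, 1.52, 1.81 and 2.27 in SLTM KD, and 1.23, 1.52 and 1.55 in control, with triple KD above all other libraries. These comparisons share the triple KD libraries with the comparison against control. Among ZNF genes on other chromosomes 28.6% were higher and 17.1% lower against SAFB1 KD, and 32.9% and 19.7% against SLTM KD. Over all other protein-coding genes the shares were 23.2% and 32.5%, and 27.3% and 30.3%. The members had 40.7% and 11.95%, and 34.5% and 16.8%. Against SLTM KD their split was thus close to that of other ZNF genes.

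SAFB1 KD against SLTM KD gave 13 members higher and 32 lower (9.27% and 6.78% of all genes tested), with a median of -0.03. With upper-quartile scaling 10 were higher and 47 lower. ZNF66, ZNF302 and ZNF793 were highest (0.30, 0.28 and 0.22), and ZNF814, ZNF610 and ZNF112 lowest (-1.16, -0.45 and -0.43). ZNF66 was not called with DESeq2 or limma-voom, nor without SAFB1 KD replicate 1 or 2 or SLTM KD replicate 2 or 3 (0.25 to 0.30).

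A departure from additivity, tested as a contrast, asks whether the log2 change in triple KD differs from the sum of the changes in SAFB1 KD and SLTM KD. SAFB2 KD is not part of that sum, so SAFB2 loss and a combined effect cannot be told apart. Of the members, 47 lay above the sum and 16 below it (9.48% and 11.9% of all genes tested), with a median departure of 0.10. Among ZNF genes on other chromosomes 44 of 234 lay above and 27 below, and among other chromosome 19 genes 121 of 796 and 150. ZNF737, ZNF577 and ZNF441 led upwards with departures of 0.48, 0.48 and 0.47, and ZNF814, ZNF761 and ZNF780A downwards with -0.76, -0.41 and -0.34. ZNF441 had 6.53, 6.53 and 6.34 CPM in triple KD, 4.58, 4.91 and 4.82 in SAFB1 KD, 4.89, 5.35 and 4.92 in SLTM KD, and 5.379, 4.996 and 5.111 in control, so that it stood clear of the others in triple KD alone. ZNF737 was not above control in triple KD, at 1.84, 2.14 and 1.70 CPM against 1.90, 2.16 and 2.07, while the single knockdowns had 1.48 to 1.83 CPM. Its departure was not called with DESeq2, limma-voom or no filter on low counts (0.49 in the last). Nor was it called in 8 fits that left out a library, in which it was 0.39 to 0.50 (replicate 2 of any group, replicate 1 of triple KD or SAFB1 KD, or replicate 3 of SLTM KD or control). The departure of ZNF814 was -0.45 without SAFB1 KD replicate 3 and was not called.

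Of 17 listed genes whose products work with KRAB proteins in silencing, 11 rose and 3 fell in triple KD, 6 rose and 0 fell in SAFB1 KD, and 3 rose and 1 fell in SLTM KD, with median log2 changes of 0.14, 0.04 and 0.03. Over all genes tested 19.4% rose and 20.9% fell in triple KD, 5.04% and 4.62% in SAFB1 KD, and 3.6% and 5.65% in SLTM KD. For protein-coding genes other than the members these shares were higher. They were 28.5% and 34.0% in triple KD, 8.9% and 7.2% in SAFB1 KD, and 5.4% and 10.2% in SLTM KD. The 0 in SAFB1 KD was also 0 with DESeq2, with limma-voom and at an unadjusted p under 0.05. CBX1, an HP1 protein that binds methylated histone H3, had 150, 150 and 145 CPM in triple KD against 116, 119 and 119 in control (0.33 ± 0.023, adjusted p = 4.9e-19). HDAC1, a histone deacetylase, rose by 0.26 (2.9e-17), and MORC2, an ATPase of the HUSH silencing pathway, by 0.28 (1.3e-15). TRIM28 itself had 955, 948 and 946 CPM in triple KD against 905, 900 and 915 in control, a rise of 0.07 (0.0012), and SETDB1 rose by 0.25 (4.9e-12). The genes that fell were CBX3, another HP1 protein (-0.12, 8.8e-07), the chromatin remodeller SMARCAD1 (-0.33, 8.7e-15) and the HUSH subunit MPHOSPH8 (-0.26, 7.2e-12).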

How the data were processed

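Poly(A)+ RNA of 12 HEK293 libraries was sequenced, 3 per group, with groups taken from the sample titles. The authors trimmed the reads, mapped them with STAR 2.7.9a against GRCh38 using GENCODE annotation, and deposited each library's raw read count for every gene, from uniquely mapped reads on the reverse strand of the kit, without scaling. Reads that fit several genes equally well are absent. Symbols, coordinates and exons came from GENCODE v44, which held 58207 of the 58780 IDs. Genes with at least 10 counts over the 12 libraries (26688) were tested with edgeR 4.0.16 (R 4.3.3): TMM scaling, glmQLFit and glmQLFTest in 1 fit of all groups, with p-values adjusted by the method of Benjamini and Hochberg across that whole table and a call at 0.05. Within groups the libraries differed by more than sampling noise (chi-square per degree of freedom from 2.06), and the common biological coefficient of variation was 2.14%. p-values measure the spread between these 3 libraries per group. CPM values use TMM-scaled library sizes.

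The members and gene lists were chosen with earlier results of these data known. Named in the text were called members with a mean of at least 1 CPM and no overlap between libraries (10 highest and 10 lowest in triple KD, 5 in each single knockdown, 3 in the other comparisons), the 5 highest levels per length, and the member with the smallest adjusted p in each block; others are named as chosen later or for their role. Departures from additivity needed no separation of libraries. Fingers and KRAB boxes were found by pattern in translated GENCODE transcripts, and a divergent KRAB box may be missed. Alternatives were RLE and upper-quartile scaling, no filter, filterByExpr, DESeq2 1.42.0, limma-voom (limma 3.58.1), fits of the compared libraries only, a replicate block, an offset for exonic GC content, leaving out each library, other count minimums, a 1.5-fold test and block gaps of 0.5 and 2 Mb.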

Additional observations from a re-analysis of the deposited data

Results flagged for a closer look

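Of the 5 members called in both single knockdowns, ZNF580 and ZNF112 moved in opposite directions, and the contrast between SAFB1 KD and SLTM KD was itself past the threshold. ZNF580 had 37.4, 37.8 and 33.9 CPM in SAFB1 KD, 45.8, 45.6 and 45.9 in SLTM KD, and 41.7, 40.3 and 42.2 in control, with log2 changes of -0.18 (adjusted p = 0.00022) and 0.15 (0.0032) and a difference of -0.33 ± 0.037 (2.1e-10, edgeR). Its exons overlap ZNF581 and CCDC106 on the same strand over 15.6% of their length, and triple KD gave 34.9, 31.3 and 33.0 CPM.

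ZNF112 had 6.61, 7.57 and 6.79 CPM in SAFB1 KD, 9.54, 9.32 and 9.49 in SLTM KD, and 8.24, 8.23 and 8.34 in control, with changes of -0.24 (0.011) and 0.19 (0.044) and a difference of -0.43 ± 0.067 (1.2e-06). The rise in SLTM KD was close to the threshold and was not called with DESeq2 (0.19), limma-voom (0.19) or no filter on low counts (0.18), nor in 8 fits that left out a library.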

How the results depend on the processing

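Of 395 alternative values of the counts and medians, 350 stayed close to the reported value and 45 moved. Close means within 1.5 times the reported count, or, for a median change, within 1 SD of the medians of the 3 libraries of the knockdown group. In the test against a 1.5-fold change 2 members were higher and 1 lower in triple KD, and 0 and 0 in either single knockdown. Triple KD had 0 and 0 against SAFB1 KD and 1 and 1 against SLTM KD, and SAFB1 KD had 0 and 1 against SLTM KD. Where edgeR gave 0 there, the unadjusted p was under 0.05 for 1 member in SAFB1 KD (lower), 1 in triple KD against SAFB1 KD (higher) and 0 otherwise, and no other tool ran this test. SLTM KD had 17 higher and 5 lower members with upper-quartile scaling, 18 and 4 with the GC offset, and 7 to 13 and 3 to 11 when each library was left out (the fewest higher without SLTM KD replicate 2, the fewest lower without control replicate 2). SAFB1 KD against SLTM KD had 8 to 13 higher members when each library was left out, with 8 without SAFB1 KD replicate 1 or SLTM KD replicate 3. The median change in triple KD was 0.13 with upper-quartile scaling and 0.14 with the GC offset. In SAFB1 KD it was -0.030 with no filter, -0.027 with only the libraries compared, -0.010 with the GC offset, and from -0.0287 to -0.0094 when each library was left out. In SLTM KD it was 0.036 with upper-quartile scaling, 0.006 with no filter, 0.027 with the GC offset, and from 0.011 to 0.027 when each library was left out. A gap of 2 Mb gave 8 blocks and one of 0.5 Mb gave 20.

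The replicate numbers were not used as pairs, since the labels name nothing that they share and not every same-numbered pair correlated over 0.1. Deviations of same-numbered libraries correlated at -0.025 to 0.139 (median 0.0504, 1 of 18 pairs over 0.1) and those of different-numbered libraries at -0.111 to 0.0636 (median -0.0272, 0 of 36 over 0.1). As a hint from the data only, 7 of 12 libraries were closest to their own number in every other group. With the replicate block SLTM KD had 18 higher and 12 lower members. The replicate block with the GC offset gave 22 higher and 5 lower in SLTM KD, 17 higher in SAFB1 KD, and medians of 0.14, -0.012 and 0.028 in triple KD, SAFB1 KD and SLTM KD.

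Of 90 results for single genes, 13 lost the call under 1 or more alternatives. ZNF91, not called, changed by 0.021 in triple KD with the GC offset and by 0.021 with the replicate block and GC offset, and ZNF114, also not called, by -0.049 (without control replicate 3) to 0.79 (without control replicate 2). The departure from additivity with only the libraries compared was not run, since it needs all 4 groups. The cause of these shifts was not tested. Depth limits genes near the count minimum, where single libraries hold few reads.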
